A study of Homo sapiens with 5 samples.

Results

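The transcripts described are those of 10 genes of the NF-kB system, chosen by symbol but with earlier results of these data known. The subunit genes are NFKB1, NFKB2, RELA and RELB. The others are the feedback inhibitors NFKBIA and TNFAIP3 and the target genes BIRC3, SOD2, ICAM1 and IL32. They are 10 of the 57905 genes with read counts in every library, each symbol stood for a single gene identifier, and all 10 were among the 16471 genes tested. The cells were of SVG-10B1, a human astroglial line that is long established, grown in DMEM with fetal calf serum. Wild-type cells, to which the labels give clone number 1, gave 2 libraries. Edited cells carry the R132H substitution in a single allele of IDH1, the gene of cytosolic isocitrate dehydrogenase, and came as 1 library of clone 2 and 2 libraries of clone 6. Each clone is a single edited line and no unedited line other than the wild type was analysed here, so the edit and the history of the clones cannot be told apart. Nothing in the labels tells whether the replicates were separate cultures, and p-values therefore measure the spread between these libraries, which may be technical. In bulk RNA, fewer cells with a transcript and less of it per cell cannot be told apart.

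NF-kB is a family of transcription factors made of paired subunits, held in the cytoplasm by inhibitors of the IkappaB family until a signal from a cytokine or pathogen receptor leads to the inhibitor's destruction. The freed dimers enter the nucleus and activate genes of inflammation, adhesion and survival, together with the genes of their own inhibitors, which then close the loop. In astrocytes the pathway is known as a route by which interleukin 1 and tumor necrosis factor raise chemokines and adhesion molecules.

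The stretches before the transcript starts of 6 of the genes are shown because they hold the letters that NF-kB dimers are known to recognise. Each gives the 250 bases upstream of a start from RefSeq (GRCh38.p14), 5′ to 3′ on the gene's own strand, in lower case. Capitals mark matches to the kappa B consensus, a motif of 10 letters, or to a shorter motif of 9 letters, GGANNNTCC, searched on both strands. The motifs overlap each other, so that a run of capitals can hold a match to both. The NFKB1 stretch is that of the first of its starts (chr4:102501109-102501358, plus strand), NFKBIA lies at chr14:35404750-35404999 (minus strand), TNFAIP3 at chr6:137867009-137867258 (plus strand), BIRC3 at chr11:102317234-102317483 (plus strand), ICAM1 at chr19:10270870-10271119 (plus strand), and the first start of IL32 at chr16:3065153-3065402 (plus strand).
NFKB1: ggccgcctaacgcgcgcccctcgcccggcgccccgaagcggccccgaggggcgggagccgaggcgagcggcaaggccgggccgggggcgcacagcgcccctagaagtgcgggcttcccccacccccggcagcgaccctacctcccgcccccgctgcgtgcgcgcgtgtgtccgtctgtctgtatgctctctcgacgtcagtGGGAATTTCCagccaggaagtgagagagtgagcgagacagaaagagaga
NFKBIA: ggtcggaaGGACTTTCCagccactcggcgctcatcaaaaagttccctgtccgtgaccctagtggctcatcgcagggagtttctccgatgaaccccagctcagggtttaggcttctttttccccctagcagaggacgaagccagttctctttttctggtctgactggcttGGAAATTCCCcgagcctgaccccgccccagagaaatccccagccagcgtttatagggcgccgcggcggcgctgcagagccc
TNFAIP3: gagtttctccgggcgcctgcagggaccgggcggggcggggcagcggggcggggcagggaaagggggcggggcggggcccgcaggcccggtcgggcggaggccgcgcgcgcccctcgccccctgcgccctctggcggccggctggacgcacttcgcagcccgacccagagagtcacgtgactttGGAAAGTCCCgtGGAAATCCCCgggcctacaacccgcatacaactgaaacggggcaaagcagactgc
BIRC3: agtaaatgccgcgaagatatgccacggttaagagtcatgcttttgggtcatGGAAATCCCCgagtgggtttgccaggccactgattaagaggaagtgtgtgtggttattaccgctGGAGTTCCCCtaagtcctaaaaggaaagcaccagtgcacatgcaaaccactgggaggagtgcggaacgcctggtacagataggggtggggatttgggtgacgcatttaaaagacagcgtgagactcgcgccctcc
ICAM1: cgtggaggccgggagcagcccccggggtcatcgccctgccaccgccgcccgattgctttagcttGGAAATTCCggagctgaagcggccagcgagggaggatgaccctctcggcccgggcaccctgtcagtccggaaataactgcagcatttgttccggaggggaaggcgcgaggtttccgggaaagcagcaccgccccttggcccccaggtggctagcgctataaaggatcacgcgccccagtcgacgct
IL32: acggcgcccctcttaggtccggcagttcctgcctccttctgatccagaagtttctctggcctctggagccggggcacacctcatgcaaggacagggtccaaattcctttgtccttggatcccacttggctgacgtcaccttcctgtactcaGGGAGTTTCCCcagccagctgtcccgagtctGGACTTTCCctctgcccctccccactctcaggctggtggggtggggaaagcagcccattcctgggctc

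The RefSeq table matched 9 of the 10 genes, with 17 start windows of 300 bases (250 before and 50 after the start). RELB was not matched. The kappa B consensus was found in the windows of 6 genes: NFKB1, NFKB2, NFKBIA, TNFAIP3, BIRC3 and IL32. It was present in 7.09% of the 27305 genes in the table (5.91% of 35116 windows). The shorter motif was found in 7 genes, adding ICAM1 and RELA and lacking BIRC3, against 11.2% of all genes and 9.32% of all windows. Either motif was found in 8 of the 9 matched genes and in 15.6% of all genes. NFKBIA had GGAAATTCCC at positions -81 to -72 from its start. TNFAIP3 had GGAAAGTCCC at -67 to -58 and GGAAATCCCC at -55 to -46, and the same GGAAATCCCC letters lay at -199 to -190 of BIRC3. NFKB1 had GGGAATTTCC at -49 to -40. NFKB2 held the most matches, with consensus letters upstream of both of its downstream starts, among them GGGACTTTCC at -21 to -12 of the last. SOD2 had neither motif in its 4 windows, although it was among the genes with the larger falls described next. Neither motif was found at start 2 of NFKB1, RELA and IL32 or at start 1 of NFKB2. For the 9 matched genes, matches were counted by gene and not by window. A match is only a run of letters in a window, and genes with several starts have more windows in which to hold one. The 10 genes were chosen as known parts and targets of the NF-kB system. A higher share than over all genes could be foreseen from that choice, so the shares are a description and no test was made.

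**Figure D1:**
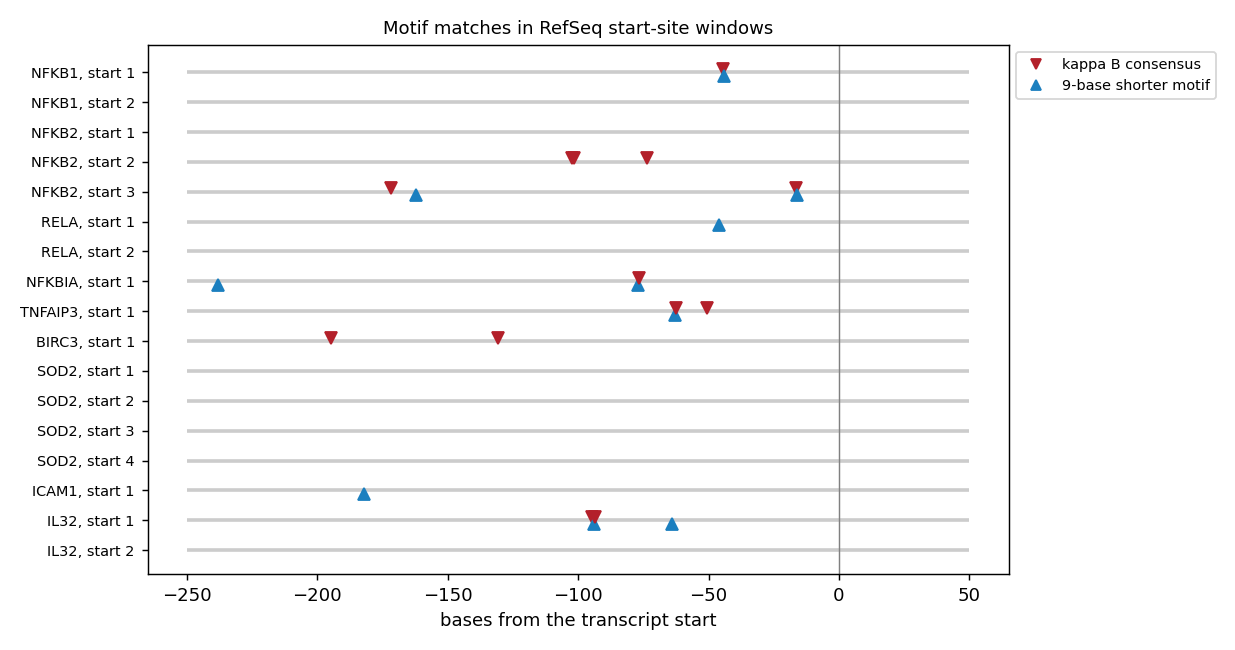
Positions of motif matches in the 17 RefSeq start windows of 9 genes, in bases from the transcript start (vertical line at 0), with red triangles for the kappa B consensus and blue triangles for the shorter motif. The last NFKB2 start has the matches closest to the start, NFKBIA, BIRC3, ICAM1 and that same NFKB2 start have matches farther upstream, and the 4 SOD2 windows hold none.

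All 10 transcripts were lower in the edited cells than in wild type. Levels are given as CPM, the standard unit in which a gene's reads are scaled to the size of the library (here the TMM-scaled size), always in the order wild-type replicates 1 and 2, clone 2, and clone 6 replicates 1 and 2. Each of the 10 was called lower at an adjusted p below 0.05 (edgeR's quasi-likelihood test with Benjamini-Hochberg adjustment over all genes tested, as for every adjusted p of the fold changes here), where 9.49% of all genes tested were called lower and 7.64% higher. In all 10 the 3 edited libraries lay below both wild-type libraries, which held for 25.3% of all genes tested, and the reverse for 26.1%. In 7 of the 10 the call came with a fall of at least 2-fold, against 4.46% of all genes. The median log2 fold change of the 10 was -1.94, beside 0.02 over all genes tested.

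**Figure D2:**
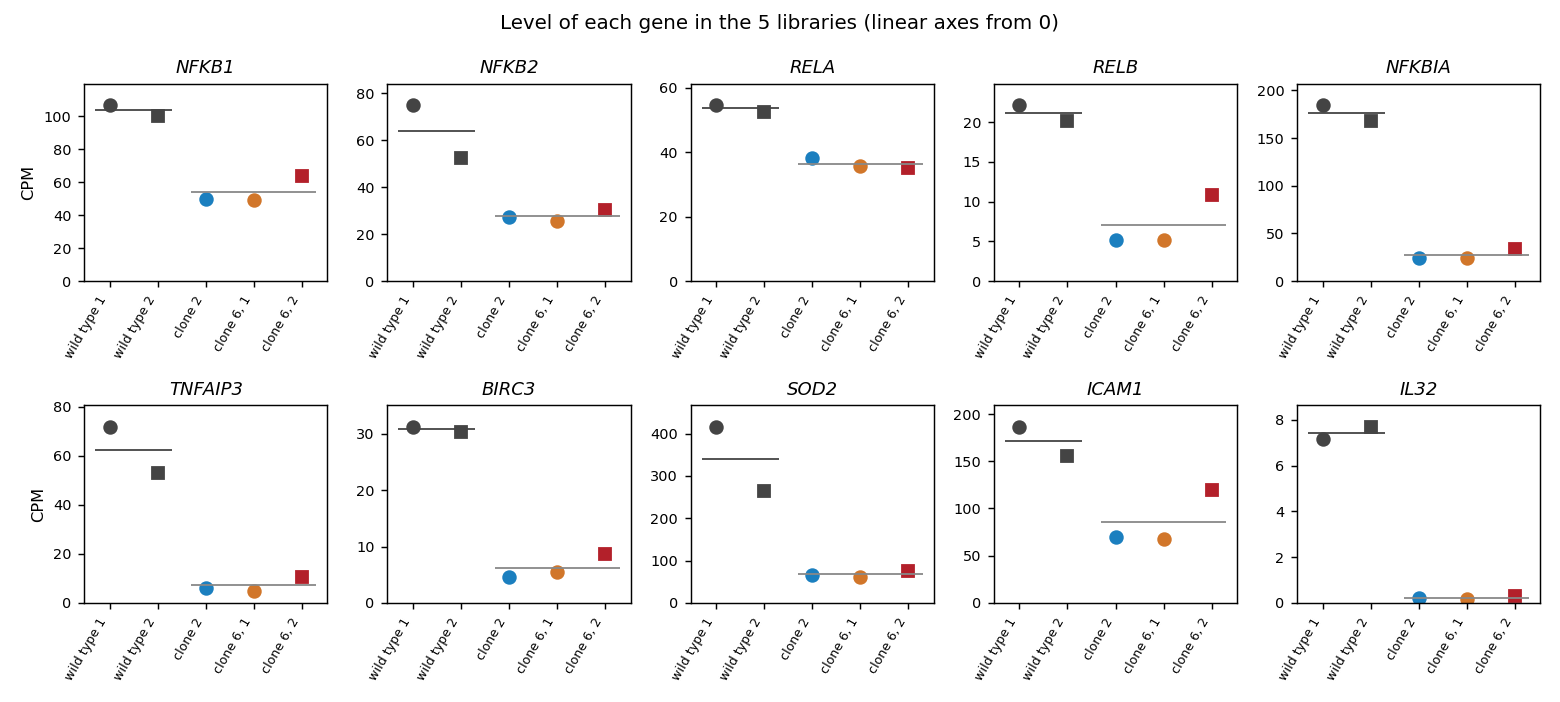
CPM of each gene in the 5 libraries on linear axes from 0, with gray symbols for wild type, blue for clone 2, orange and red for clone 6 replicates 1 and 2, and horizontal lines at the means of the wild-type (n = 2) and edited (n = 3) libraries. In each panel the 3 edited libraries lie below both wild-type libraries, and red lies above blue and orange in every panel except that of RELA.

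Among the subunits, the fitted fall over all edited libraries was smallest for RELA and largest for RELB, but in clone 6 replicate 2 alone NFKB2 was further below the wild-type mean (2.11-fold) than RELB (1.95-fold). RELA, chromosome 11 (ENSG00000173039), encodes p65, the activating partner of the canonical dimer. Its CPM were 54.7, 52.4, 38.3, 35.8 and 35.2. The edited libraries formed a narrow band below a narrow wild-type pair, with a log2 fold change of -0.56 (standard error 0.096, adjusted p = 0.011). NFKB1, chromosome 4 (ENSG00000109320), encodes p105, the precursor of p50. Its CPM were 107, 100.4, 49.9, 49.1 and 63.5, so that clone 6 replicate 2 was the highest edited library and still well below wild type. The log2 fold change was -0.94 (standard error 0.13, adjusted p = 0.00557).

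NFKB2, chromosome 10 (ENSG00000077150), encodes p100, the precursor of p52 in the non-canonical branch. It had 75.1, 52.4, 27.35, 25.7 and 30.3 CPM. Its wild-type libraries were farther apart than its edited ones, and the log2 fold change was -1.20 (standard error 0.17, adjusted p = 0.00539). RELB, chromosome 19 (ENSG00000104856), encodes the usual partner of p52. It had 22.2, 20.1, 5.16, 5.13 and 10.8 CPM. Here clone 6 replicate 2 stood apart from the other edited libraries at 2.10 times their mean, yet below wild type, and the log2 fold change was -1.58 (standard error 0.32, adjusted p = 0.0194). The calls of RELA, NFKB1, NFKB2 and RELB were lost when certain single libraries were left out. Without wild-type replicate 1 none of the 4 passed (adjusted p from 0.0507 for NFKB2 to 0.152 for RELB), and without wild-type replicate 2 only NFKB2 did. Without clone 6 replicate 1, RELA and RELB missed narrowly (adjusted p = 0.051 and 0.0545), as did RELB without clone 2 (0.053).

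The feedback inhibitors had larger fitted falls than the subunits, although differences between genes were not tested. NFKBIA, chromosome 14 (ENSG00000100906), encodes IkappaBalpha, which binds NF-kB dimers, retains them in the cytoplasm and is itself induced by them. It had 185, 168, 23.8, 24.5 and 34.0 CPM. Its mean went from 177 ± 11.9 CPM in wild type (SD, n = 2) to 27.4 ± 5.67 CPM in the edited libraries (SD, n = 3), a log2 fold change of -2.685 (standard error 0.17, adjusted p = 0.0003285), or 6.43-fold lower. TNFAIP3, chromosome 6 (ENSG00000118503), encodes A20, a ubiquitin-editing enzyme that limits signalling upstream of the IkappaB kinases. It had 71.9, 52.8, 5.87, 4.90 and 10.7 CPM. Clone 6 replicate 2 carried about double the level of the other edited libraries (1.99 times their mean), but the gap to wild type was larger, with a log2 fold change of -3.11 (standard error 0.315, adjusted p = 0.00184), or 8.65-fold lower. In the GENCODE 29 annotation TNFAIP3 shares 95 exon bases with an antisense gene that had 98 reads over all libraries. Whether reads were counted by strand was not given, so reads of such pairs cannot be told apart.

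The 4 target genes differed widely in the size of their fall. BIRC3, chromosome 11 (ENSG00000023445), encodes cIAP2, a ubiquitin ligase of the tumor necrosis factor receptor complex that protects from cell death. It had 31.3, 30.4, 4.645, 5.51 and 8.63 CPM. The wild-type libraries were nearly equal, and the log2 fold change was -2.29 (standard error 0.24, adjusted p = 0.0022). SOD2, chromosome 6 (ENSG00000112096), encodes the manganese superoxide dismutase of mitochondria. It had 417, 264, 65.0, 62.2 and 74.8 CPM. It was the most variable of the 10 between the wild-type libraries, replicate 1 being 1.58 times replicate 2, while the 3 edited libraries were close together. The log2 fold change was -2.34 (standard error 0.19, adjusted p = 0.000907). In GENCODE 29 its exons share 298 bases with WTAP on the opposite strand, which had 5237 reads over all libraries, and 845 bases with a further SOD2 entry on the same strand.

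ICAM1, chromosome 19 (ENSG00000090339), encodes an adhesion receptor for leukocytes. It had 187, 156, 70.25, 67.6 and 119.5 CPM. Clone 6 replicate 2 lay about midway between the other edited libraries and wild type, and the log2 fold change of -0.998 (standard error 0.25) had the highest adjusted p of the 10 (0.0379). ICAM1 missed the threshold when any single library other than clone 6 replicate 2 was left out (highest adjusted p = 0.243, without wild-type replicate 1). It shares 815 exon bases with an antisense gene that had 14 reads over all libraries. IL32, chromosome 16 (ENSG00000008517), encodes a cytokine first described in lymphocytes and natural killer cells. It had 7.16, 7.70, 0.1935, 0.153 and 0.313 CPM, from 155, 140, 3, 2 and 5 reads. With only 10 reads in the edited libraries against 295 in wild type, the ratio of the summed reads per library size was 33.0 (95% counting interval 17.7 to 69.6). The fitted log2 fold change was -5.01 (standard error 0.29, adjusted p = 0.000292). NFKBIA, TNFAIP3, BIRC3, SOD2 and IL32 were called in all 15 alternative settings, and all 10 genes kept a negative fold change in each.

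**Figure D3:**
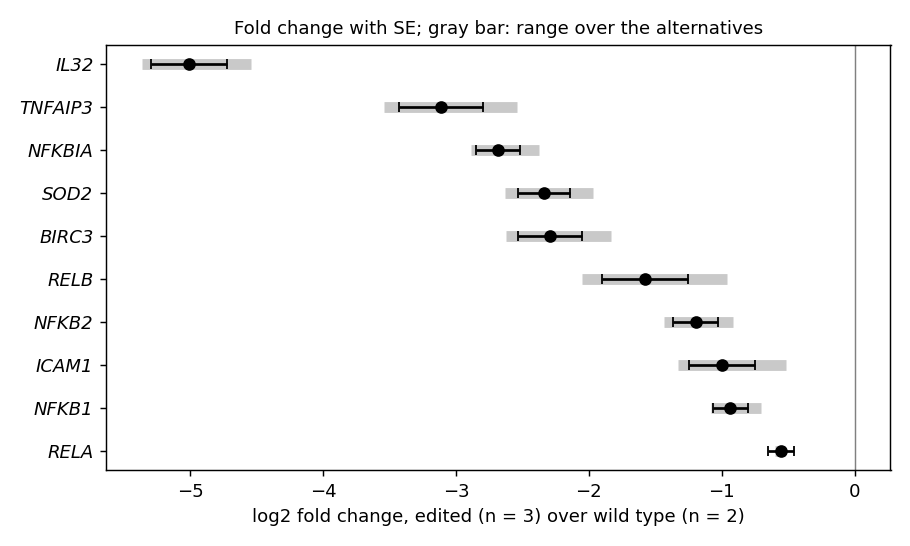
Log2 fold change of each gene, edited (n = 3) over wild type (n = 2), as black points with bars of 1 standard error, and gray bars for the range over the 15 alternative settings. IL32 lies at -5.01 and RELA at -0.56, every gray bar lies left of 0, and the widest bars relative to the change are those of RELB and ICAM1.

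Per kilobase of exon (GENCODE 29 exon union), NFKBIA was the most abundant of the 10 in wild type at 70.9 to 78.0 CPM per kilobase, followed by ICAM1 at 42.1 to 50.4. The ranges of SOD2, NFKB1, NFKB2 and TNFAIP3 then overlapped one with the next between 10.5 and 25.3. Below them came RELA at 9.60 to 10.0, RELB at 6.62 to 7.31, BIRC3 at 4.04 to 4.16 and IL32 at 2.23 to 2.40, with no overlap between neighbours. In the edited libraries ICAM1 was first at 18.2 to 32.25 CPM per kilobase and NFKBIA second at 10.0 to 14.3. By rank of the edited libraries, RELA moved from 7 to 4 (6.44 to 7.01 CPM per kilobase), SOD2 from 3 to 6 (3.77 to 4.54) and TNFAIP3 from 6 to 8 (0.97 to 2.12). Some neighbours in that order overlapped: NFKBIA narrowly with NFKB1 (7.85 to 10.16), and RELA with NFKB2 (5.74 to 6.75). TNFAIP3 overlapped with both RELB (1.69 to 3.57) and BIRC3 (0.618 to 1.15). The SOD2 exon union of 16493 bases includes long transcript forms, which lowers its value on this scale.

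Because RELA itself fell, each gene was also set against RELA within its library as a ratio of reads. NFKBIA had 3.38 and 3.21 reads per RELA read in wild type, and 0.621, 0.685 and 0.965 across the edited libraries. For TNFAIP3 the ratios were 1.31 and 1.01 against 0.153, 0.137 and 0.304. In 8 of the 9 genes the edited ratios all lay below both wild-type ratios. ICAM1 was the exception, with 3.42 and 2.98 in wild type, 1.83 and 1.89 in clone 2 and clone 6 replicate 1, and 3.39 in clone 6 replicate 2. No test was made on these ratios. The share of all genes whose ratio to RELA separates in this way was not computed, so the count has no background.

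The libraries of the edited clones did not group by clone. Clone 2 and clone 6 replicate 1 had a median absolute log2 difference of 0.105 per gene, smaller than that of the wild-type pair (0.15) or of the clone 6 pair (0.294), although their counts differed by more than sampling noise (median chi-square per gene at 1.53 times its expectation). Clone 6 replicate 2 is therefore described on its own. Total reads were 13572114 to 21881726 per library, and ribosomal RNA genes took 0.417 to 9.79% of them. Clone 6 replicate 2 had 0.631%, clone 2 had 0.417%, and clone 6 replicate 1 had the highest share. With that share as a covariate all 10 genes remained called.

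In clone 6 replicate 2 the fall of the 10 genes was smaller than in the other edited libraries for 9 of them. In these 9 it lay above both other edited libraries and below both wild-type libraries, as did 9.11% of all genes tested and 39.2% of the 1563 genes called lower. RELA was the exception, at 0.951 times the mean of the other edited libraries. The excess over that mean was 2.10-fold for RELB, 1.99-fold for TNFAIP3, 1.80-fold for IL32 (5 reads against 3 and 2), 1.73-fold for ICAM1, 1.699-fold for BIRC3, 1.41-fold for NFKBIA, 1.28-fold for NFKB1, 1.18-fold for SOD2 and 1.14-fold for NFKB2. Relative to the wild-type mean on the log2 scale, the medians of the 10 for clone 2 and the clone 6 pair were -2.18, -2.21 and -1.44, in that order (all genes, 0.02, 0.02 and -0.01).

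All 10 genes were called lower with clone 6 replicate 2 as the only edited library, where 16.6% of all genes were. That fit has 1 edited library, assumed to vary like the wild-type pair, so its calls rest on the spread of that pair alone. It gave log2 fold changes from -0.52 for ICAM1 to -4.54 for IL32. Without clone 6 replicate 2 all 10 were called, against 19.7% of all genes called lower. The fit then rested on the near-identical clone 2 and clone 6 replicate 1 libraries, and the changes ran from -0.54 for RELA to -5.36 for IL32. With those near-identical libraries summed into 1, RELB and ICAM1 were not called and the other 8 were, against 5.42% of all genes.

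Clone 6 and clone 2 were compared directly in a model with 3 groups. Since the library labelled clone 6 replicate 1 was closer to the library labelled clone 2 than to its own pair, a mix-up of labels was not tested, and the differences hold for the libraries as labelled. No gene of the 10 was called, as was none (0%) of the 16471 genes, with 114 genes and none of the 10 at an unadjusted p below 0.05. The log2 differences, clone 6 minus clone 2, ran from -0.11 (standard error 0.16) for RELA to 0.64 (standard error 0.44) for RELB. DESeq2 called 2 genes, none of them among the 10. Without clone 6 replicate 1, clone 6 replicate 2 and clone 2 were lone libraries assumed to vary like the wild-type pair. The log2 difference was then 1.07 for RELB, 0.89 for BIRC3 and 0.77 for ICAM1, genes named after their values were seen.

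**Figure D4:**
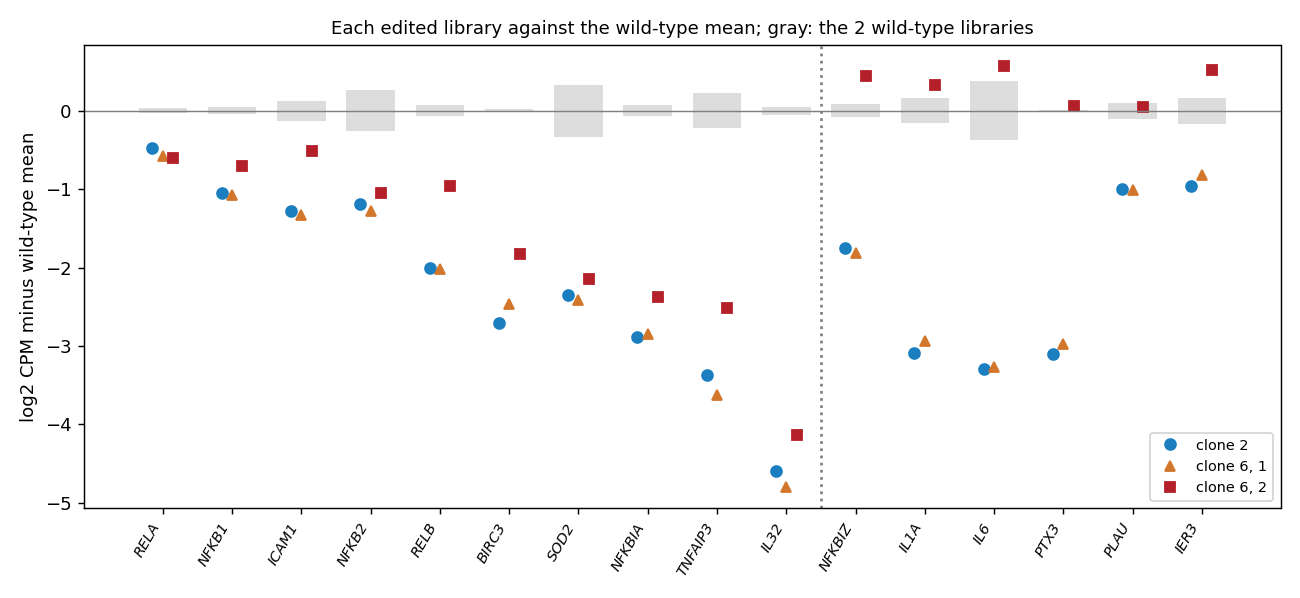
Log2 CPM of each edited library minus the wild-type mean for the 10 genes (left of the dotted line) and for 6 other NF-kB pathway genes chosen after their values were seen (right), with circles for clone 2, triangles and squares for clone 6 replicates 1 and 2, and gray boxes spanning the wild-type libraries. All 3 edited libraries lie below the gray box for the 10 genes, while for NFKBIZ, IL1A, IL6, PTX3, PLAU and IER3 the square lies in or above it.

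For some other genes of the pathway clone 6 replicate 2 was not below wild type. A count made after the values were seen took genes that were below both wild-type libraries in clone 2 and clone 6 replicate 1, but in clone 6 replicate 2 were no lower than the lower wild-type library. None of the 10 genes met it, and 8.03% of all genes tested did. Among 24 tested NF-kB target genes outside the 10 it was met by 6 (25%): IER3, CXCL2, IL6, PLAU, PTX3 and NINJ1. It was met by 0 of 10 other feedback regulators, 0 of 10 receptors, 1 of 24 kinases and adaptors (4.17%, MAP3K7), and by 1 of 6 other subunit and IkappaB family genes (16.7%, NFKBIZ) and 1 of 5 ligands (20%, IL1A). The cytokine IL6 had 34.3, 58.15, 4.45, 4.52 and 66.6 CPM, and the pentraxin PTX3, which binds complement and pathogens, had 173, 176, 20.2, 22.2 and 182 CPM. NFKBIZ, a nuclear IkappaB family member needed for IL6 induction, had 71.2, 79.5, 22.2, 21.4 and 102 CPM, and IL1A, an interleukin 1 receptor ligand, had 44.0, 35.4, 4.52, 5.05 and 49.35 CPM. These 4 genes were picked after their values were seen, and the count itself selects for a gap between clone 6 replicate 2 and the other edited libraries. Their gap is therefore no separate result. Among the other genes that met the count, clone 6 replicate 2 was at 1.15 (MAP3K7) to 12.7 (CXCL2) times the mean of the other edited libraries, beside 2.10 for RELB. None of the 4 was called in the genotype comparison (adjusted p from 0.387 to 0.618), which the selection also makes likely.

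The rest of the pathway was described from lists of genes named for their role. Beside the counts of each list stand 9.49% of all genes tested called lower and 7.64% called higher. No list was tested against these shares. Of the 6 other subunit and IkappaB family genes, 2 were called lower and 0 higher, with a median log2 fold change of -0.62. BCL3, a nuclear IkappaB protein that partners p50 and p52, fell by 1.73 on the log2 scale (standard error 0.41, adjusted p = 0.0321) and NFKBIE, which encodes IkappaBepsilon, by 0.71 (standard error 0.15, adjusted p = 0.0202). The remaining subunit gene REL had 11.3, 9.63, 6.06, 8.20 and 6.32 CPM and did not pass (log2 fold change -0.61, adjusted p = 0.066). In clone 6 replicate 2 BCL3 was lower than in the other edited libraries, at 0.492 times their mean. NFKBIB and NFKBID had log2 fold changes of 0.10 and -0.25 and were not called.

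Of 10 other feedback regulators, 3 were called lower and 1 higher, with a median log2 fold change of -0.11. ZC3H12A, an RNase that degrades inflammatory transcripts, had 26.3, 21.2, 4.13, 3.91 and 4.13 CPM. It fell about as far as NFKBIA, by 2.55 on the log2 scale (standard error 0.15, adjusted p = 0.000302), but clone 6 replicate 2 did not stand apart from the other edited libraries. TNIP1, which recruits A20 to ubiquitin chains, fell by 0.81 (standard error 0.20, adjusted p = 0.0373) and OTUD7B, a deubiquitinase, by 0.34 (standard error 0.089, adjusted p = 0.044). TAX1BP1, an adaptor of A20, rose by 0.71 (standard error 0.11, adjusted p = 0.0083). The deubiquitinase CYLD had a log2 fold change of 0.71 and did not pass (adjusted p = 0.0511).

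Of 24 kinases and adaptors that carry the signal from receptors to the IkappaB proteins, 6 were called lower and 2 higher, and the median log2 fold change was 0.03. TRAF5, an adaptor of tumor necrosis factor receptors, had 31.7, 31.2, 10.9, 10.1 and 11.3 CPM and fell by 1.54 on the log2 scale (standard error 0.12, adjusted p = 0.000609). IKBKE, an IkappaB kinase related protein, fell by 1.41, BIRC2, which encodes cIAP1, by 1.17, and MYD88, the adaptor of interleukin 1 and Toll-like receptors, by 0.94 (adjusted p = 0.0154, 0.00595 and 0.0349). IKBKE and MYD88 were lower in clone 6 replicate 2 than in the other edited libraries, at 0.567 and 0.597 times their mean. The 2 genes called higher, named after their values were seen, were MAP3K14 (0.83, adjusted p = 0.0079), which encodes the kinase NIK of the non-canonical branch, and IRAK1 (0.56, adjusted p = 0.0341). The IkappaB kinase genes CHUK, IKBKB and IKBKG had log2 fold changes of 0.30, 0.48 and 0.39 and did not pass (adjusted p = 0.0693, 0.0511 and 0.258).

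Of 10 tested receptors, 5 were called lower and 1 higher, with a median log2 fold change of -1.12. IL1R1, the signalling receptor of interleukin 1, had 28.1, 20.6, 2.13, 1.69 and 1.94 CPM and was 12.6-fold lower in the edited libraries (log2 fold change -3.66, standard error 0.20, adjusted p = 0.000269). TNFRSF1B and the death receptor FAS fell by 2.88 and 2.06 on the log2 scale (adjusted p = 0.00544 and 0.00505). TLR2, a receptor of bacterial lipoproteins, had 29 reads in wild type and 0 in the edited libraries, at least 3.17-fold lower against a floor of 3 reads per library (adjusted p = 0.017). TLR4, the receptor of bacterial lipopolysaccharide, moved the other way with 31.7, 32.5, 175, 170.2 and 105 CPM, a rise of 2.23 on the log2 scale (standard error 0.24, adjusted p = 0.0022). TNFRSF1A, the main tumor necrosis factor receptor, had a log2 fold change of -0.08 (adjusted p = 0.677).

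Of 10 listed ligands only 5 had enough reads to be tested, and 1 was called. IL1B, which encodes interleukin 1 beta, had 462, 394, 18.5, 15.8 and 85.8 CPM and fell by 3.41 on the log2 scale (standard error 0.69, adjusted p = 0.0196). The wild-type mean of IL1B was 4.99 times clone 6 replicate 2 and 25.0 times the mean of the other edited libraries. TNF, the gene of tumor necrosis factor, had 4 reads in wild type and 1 in the edited libraries together and was not tested.

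Of the 24 tested targets outside the 10, 14 were called lower and 2 higher, with a median log2 fold change of -1.16. CCL2, a monocyte chemokine, went from 681 reads in wild type to 0, at least 74.3-fold lower (adjusted p = 0.000395). CXCL1 and complement component C3 fell by 6.13 and 5.63 on the log2 scale (adjusted p = 0.00261 and 0.0017). For CXCL1 the wild-type mean was 29.97 times clone 6 replicate 2 and 255 times the mean of the other edited libraries, and for C3 26.0 and 95.5 times. CSF2, a growth factor of myeloid cells with 191 reads in wild type and 7 in the edited libraries, had a ratio of 30.5 (95% counting interval 14.5 to 77.0), and all 7 of these reads were in clone 6 replicate 2. BCL2A1, an anti-apoptotic gene, went from 39 reads to 0, at least 4.27-fold lower (adjusted p = 0.0114). The 2 targets called higher, named after their values were seen, were BCL2L1 (1.13 on the log2 scale, adjusted p = 0.000683), another survival gene, and PDGFB (0.77, adjusted p = 0.0198). The median was the same with CCL2 and BCL2A1 set to their lower bounds. Relative to wild type the median by library was -3.08 (clone 2), -2.92 (clone 6 replicate 1) and -1.02 (clone 6 replicate 2). Targets called lower numbered 20 without clone 6 replicate 2, 15 with it as the only edited library, and 10 with the near-identical libraries summed. The share of all genes called lower moved as well in these settings (19.7, 16.6 and 5.42%), so the counts are not compared with each other.

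Several of these calls depended on single libraries or settings. ZC3H12A, TRAF5, IL1R1, TLR4, CCL2, CXCL1 and C3 were called in all 15 alternative settings. Calls were lost without either wild-type library for BCL3, NFKBIE, TNIP1, TAX1BP1, OTUD7B, IKBKE, BIRC2, MYD88, IL1B, VCAM1 and BCL2A1. TNFRSF1B, FAS and CSF2 lost theirs without wild-type replicate 1, and TLR2 without wild-type replicate 2. The calls of BCL3, NFKBIE, TNIP1, OTUD7B and MYD88 were also lost without clone 2, and those of NFKBIE, TNIP1, OTUD7B and MYD88 without clone 6 replicate 1. With the near-identical libraries summed, BCL3, NFKBIE, TNIP1, OTUD7B and MYD88 were not called. TNIP1 and MYD88 also missed with the ribosomal RNA covariate (adjusted p = 0.0649 and 0.0616), and OTUD7B was called in only 6 of the 15 settings. CSF2 was not called by DESeq2. No direction changed, and the highest adjusted p among them was 0.273, for TNIP1. The calls of MAP3K14, IRAK1, BCL2L1 and PDGFB were not followed through the alternative settings.

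**Figure D5:**
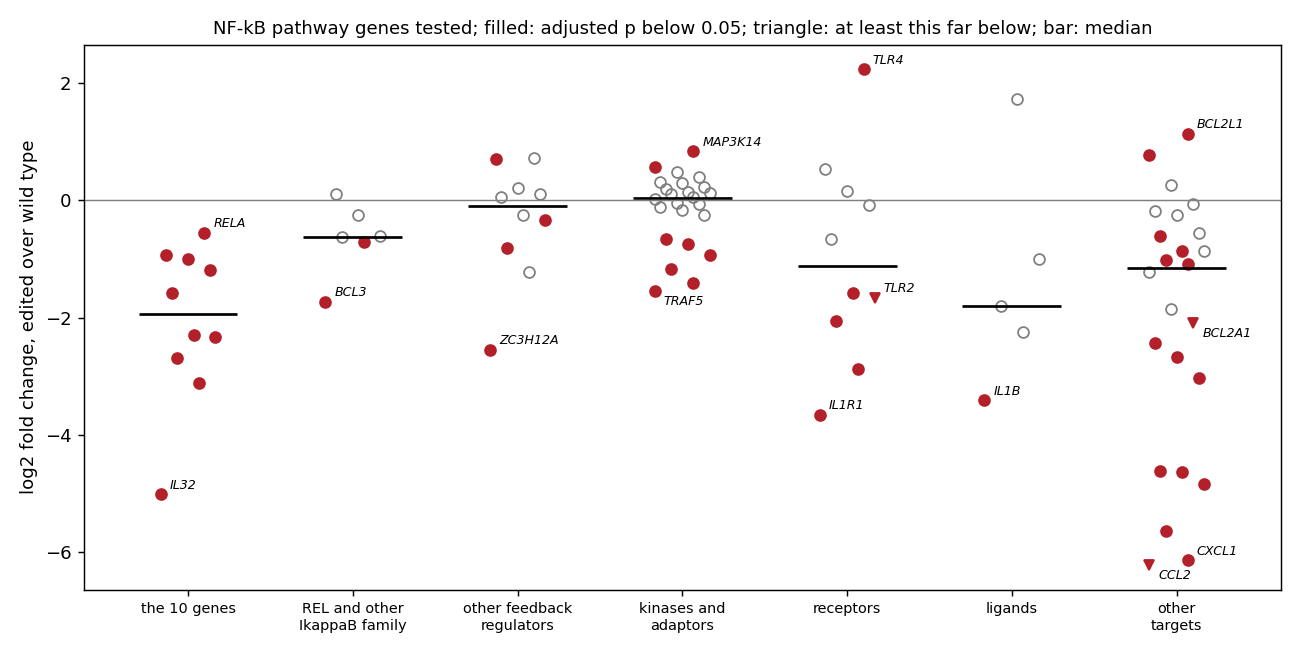
Log2 fold change, edited over wild type, of each tested gene by role, with filled red symbols for genes called at an adjusted p below 0.05, open circles for the others, black bars at the list medians, and downward triangles for genes at 0 reads in the edited libraries, drawn at their lower bound. The 10 genes are all filled and below 0, the kinases and adaptors centre near 0, and TLR4 stands highest among the receptors at 2.23.

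Relatives of the 10 genes did not all move with them. SOD1, the cytosolic superoxide dismutase, had 194, 191, 209, 206 and 215 CPM, and SOD2 was the only superoxide dismutase called, as SOD3 stayed at or under 0.601 CPM with a log2 fold change of 0.26 (adjusted p = 0.816). In the inhibitor of apoptosis family BIRC2 fell beside BIRC3, while XIAP, BIRC5 and BIRC6 had log2 fold changes between -0.06 and 0.00 and did not pass. BIRC2 is also a neighbour of BIRC3 on chromosome 11. Of 4 tested genes near BIRC3, 3 were called lower, where 9.49% of all genes tested were. The remaining neighbour, KIAA1377, was also below both wild-type libraries in every edited library, but did not pass (log2 fold change -0.695, adjusted p = 0.126). YAP1, the transcriptional effector of the Hippo pathway, had 136, 120.4, 55.6, 56.0 and 72.6 CPM (log2 fold change -1.06, standard error 0.14, adjusted p = 0.00462), and the membrane protein gene TMEM123 fell by 0.72 (adjusted p = 0.00761). The fall of BIRC3 was larger than that of each of these neighbours, although the differences between genes were not tested. Without wild-type replicate 1 the calls of YAP1, BIRC2 and TMEM123 were lost (highest adjusted p = 0.0909), and those of BIRC2 and TMEM123 also without wild-type replicate 2. In the ICAM family ICAM3 and ICAM5 had log2 fold changes of -0.08 and -0.36 and were not called, ICAM2 had 2 reads in all, and ICAM4 had 0. VCAM1, the other main leukocyte adhesion receptor of the list, fell by 2.43 (standard error 0.38, adjusted p = 0.00803).

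The genes whose profiles over the 5 libraries lay nearest to those of the 3 members with the lowest adjusted p were found by Euclidean distance of centred log2 CPM. Nearest to IL32 were ABCB1 (distance 0.358), KCNN3 (0.418) and IRX1 (0.494). Nearest to NFKBIA were FAP (0.176), CACNA1C (0.193) and LPL (0.218). Nearest to SOD2 were PTPRE (0.284), VSTM4 (0.309) and WNT5A (0.32). FAP, a membrane protease of activated fibroblasts, had 28.5, 30.4, 4.00, 3.98 and 5.38 CPM. KCNN3, IRX1 and VSTM4 had 0 reads in clone 2 and clone 6 replicate 1, where the distance depends on the prior count. Of these 9 genes none is in a list of the pathway used here.

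Markers of the labelled cell type and of cells that could be mixed in were read in the same libraries. Of 10 astrocyte markers only SLC1A3, GJA1, SOX9 and NFIA reached 1 CPM in any library. The defining markers GFAP and AQP4 were at 0.313 to 0.613 CPM and at 0 reads. The summed astrocyte markers were 177 to 190.5 CPM in wild type and 369.5 to 467 CPM in the edited libraries, most of it GJA1, which was higher by 1.27 on the log2 scale (adjusted p = 0.0022), while NFIA fell by 2.77 (adjusted p = 0.00309). For microglia and macrophages, cells with strong NF-kB responses, only CSF1R reached 1 CPM, and CX3CR1 and TYROBP had 0 reads. The sum of that list was 1.71 to 2.63 CPM in wild type and 1.00 to 1.42 CPM in the edited libraries. The T and natural killer cell list, relevant to IL32, summed to at most 0.129 CPM in any library, with CD3D, CD3E, CD2, GZMB and KLRD1 at 0 reads. The fibroblast and pericyte list summed to 1745 to 1959 CPM in wild type, 1638 and 1676 CPM in clone 2 and clone 6 replicate 1, and 525.5 CPM in clone 6 replicate 2, nearly all of it COL1A1. COL1A1 was not called (adjusted p = 0.468). COL1A2 and DCN stayed at or under 0.581 and 0.0645 CPM in every library. LUM went the other way, with 1 read in wild type against 10 in the edited libraries (ratio 0.112, 95% counting interval 0.00258 to 0.786). Of the other genes of that list, PDGFRB had 63.2, 52.4, 29.9, 30.2 and 13.3 CPM and a log2 change of -1.245. PDGFRB was called lower (adjusted p = 0.044), as was ACTA2 (30, 24, 10, 7 and 5 reads, log2 change -1.44, adjusted p = 0.0458). Each of these was called in 8 of the 15 alternative settings. The endothelial list summed to 17.4 to 21.4 CPM in wild type and 8.01 to 11.9 CPM in the edited libraries, with TEK called lower (adjusted p = 0.0297) and VWF at a log2 fold change of 0.62 (adjusted p = 0.411). The neuron list summed to 2.08 to 2.53 CPM against 6.90 to 8.58 CPM, with INA called higher (adjusted p = 0.0034). SYT1 and MAP2 of that list had 11 and 15 reads in wild type against 3 and 3 in the edited libraries (ratios 4.10, 95% counting interval 1.08 to 22.9, and 5.59, 1.58 to 30.1). Their part in the differences of the 10 genes was not tested. Of 8 housekeeping genes 1 was called, B2M, a known target of inflammatory signals, at -0.61 (adjusted p = 0.00965). The calls of B2M and TEK were lost without either wild-type library, and that of TEK also without clone 2, without clone 6 replicate 1 and with those libraries summed.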

How the data were processed

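Per the labels' protocols, Illumina HiSeq sequencing was run on total RNA of 5 SVG-10B1 samples. The deposited values are read counts per gene, whole numbers without normalization, with 1 table per library. Trimmomatic, STAR, HTSeq and the builds hg19 and GRCh37 are named, without versions or roles, per the submitters' processing notes. No source used here gives the annotation release or says whether reads were counted by strand. Of 63677 listed genes, 5772 had empty values and were left out, and 0 entries named no gene.

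Libraries were grouped by genotype and clone as labelled. The tests used edgeR 4.0.16 in R 4.3.3 (TMM scaling, the default filterByExpr filter, quasi-likelihood F test, two-sided), with 3 residual degrees of freedom for the genotype and 2 for the clone comparison. A gene was called when its p, adjusted by the Benjamini-Hochberg method over 16471 genes, was below 0.05. The standard error of a fold change is its size divided by the square root of F. CPM use TMM-scaled library sizes, on which 3 reads are 0.139 to 0.23 CPM, and log2 CPM a prior count of 2. Folds of genes at 0 are bounds against 3 reads per library, and intervals and bounds cover counting error only. DESeq2 1.42.0, other scalings, filters and designs, and omission of each library were alternatives. The procedure was run on simulated libraries drawn independently and without differences between clones, so that run gives no error rate for this design. Exon lengths and overlaps were joined by gene identifier from GENCODE 29, which is on GRCh38, and promoter windows from RefSeq.

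The 10 genes, the lists and the alternatives were chosen with earlier results of these data known. Genes named from a list were up to 4 called ones with the largest fold change and an average log2 CPM of at least 0, genes at 0 reads in 1 genotype with at least 10 reads in each library of the other, and relatives of the 10 genes. Counts of list genes without clone 6 replicate 2, and of genes near wild type in that library, were added after the values were seen.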

Additional observations from a re-analysis of the deposited data

How the results depend on the processing

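All 10 genes kept their direction in every alternative run. All 10 were called under the other scalings, filters, DESeq2 and the ribosomal RNA covariate, and 8 with clone 2 and clone 6 replicate 1 summed. Leaving out 1 library in turn gave 5 (without wild-type replicate 1) to 10 called (without clone 6 replicate 2), with fewer samples in each fit. The number of genes called between genotypes, 2822 as reported, was 4274 without a low-count filter, 1528 with those libraries summed and 5470 with clone 6 replicate 2 as the only edited library. With single libraries left out it ran from 500 (without wild-type replicate 1) to 5971 (without clone 6 replicate 2), with 697 when wild-type replicate 2, 1481 when clone 2 and 1525 when clone 6 replicate 1 was omitted. Because the number of all genes called moved with the library left out, the counts among the 10 genes are not compared between these fits. Of these omissions, the share of all genes called lower is given only for that of clone 6 replicate 2 (19.7%). The cause of the differences in number was not tested.

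Between the clones 0 genes were called, but 99 without a low-count filter, 2 by DESeq2 and 760 with the ribosomal RNA share as covariate. With single libraries left out it was 0 to 872 genes (872 without clone 6 replicate 1, 5 without clone 6 replicate 2), of which 0 to 3 were among the 10. Each clone was a lone library, assumed to vary like the wild-type pair, when clone 6 replicate 1 or clone 6 replicate 2 was left out. No conclusion is therefore drawn from the counts of those fits, either among the 10 or over all genes. The median difference between the clones over all genes moved to -0.113 on unscaled library totals.

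The replicate number as a block gave 4499 genes between genotypes and all 10 called, and 0 genes between clones. Same-numbered libraries of wild type and clone 6 correlated at 0.172 over genes, but there are only 2 such pairs and no label ties the numbers to a shared batch, so they were not treated as pairs.

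Depth limits IL32 most, with 2 to 5 reads in each edited library.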
